A study of Mus musculus with 10 samples.

Results

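RNA from mouse embryonic stem (ES) cells carrying shFox2-1, a short hairpin RNA against Rbfox2, was compared with RNA from cells carrying either of 2 control hairpins, shLuc against luciferase and shGFP against green fluorescent protein. The other hairpin against Rbfox2, shFox2-2, was kept apart and its values are given only beside those of shFox2-1. The comparison covered 12669 of the 26857 rows of the gene table, those with no failed estimate in the 3 hairpins and a mean of at least 1 FPKM (mapped fragments counted per kilobase of transcript and relative to the library total). A gene was called when the deposited interval of shFox2-1 lay wholly above, or wholly below, the intervals of both controls.

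The cells were V6.5, a line of mouse ES cells, grown on gelatin with serum and leukaemia inhibitory factor. All 4 hairpins were delivered by lentivirus in biological duplicate, giving 8 poly(A)-selected paired-end libraries, of which 6 enter this comparison. Every culture was kept for 3 days in puromycin at 1 µg/ml and then for 24 h without it, so infection and selection are common to the knockdown and the controls. Each deposited value pools both libraries of its hairpin, so every value below stands for 1 hairpin and has no SD. In the same series, binding of RBFOX2 was mapped by iCLIP, which recovers RNA crosslinked to a protein, in cells induced with doxycycline at 1 µg/ml for 24 h to make tagged human RBFOX2.

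Rbfox2 is a member of the Rbfox family of RNA-binding proteins, which recognise GCAUG in introns and exons and change which exons are joined in the mature mRNA. Many splicing regulators make alternative isoforms that are removed by nonsense-mediated decay, and in this way adjust their own amounts and those of one another. ES cells in serum and leukaemia inhibitory factor move between a naive state, marked by factors such as Nanog, Klf4 and Esrrb, and a state primed for differentiation.

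The target was measured first. Rbfox2, listed under its older name Rbm9, spans mm9 chromosome 15 from 76912768 to 77137358. It stood at 24.7 FPKM in shLuc, 23.3 in shGFP and 8.56 in shFox2-1. The shFox2-1 level was thus 34.7% of shLuc and 36.7% of shGFP, far outside both control intervals, and shFox2-2 stood at 7.21 FPKM. By limma on log2(FPKM + 1), with p-values adjusted over all 12669 genes, Rbfox2 had a log2 fold change of -1.39 (standard error 0.15, adjusted p = 7.18e-18). Its paralog Rbfox1 was below the minimum, with 0.114, 0.254 and 0.156 FPKM in shLuc, shGFP and shFox2-1.

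Markers of ES cells were high in every hairpin. Pou5f1, the core pluripotency factor Oct4, stood at 285, 336 and 299.7 FPKM in shLuc, shGFP and shFox2-1, and Dppa5a, an RNA-binding protein of early embryonic cells, at 427, 477 and 517. Of 20 fibroblast markers 7 passed the minimum, and all 20 together, those under it included, summed to 35.4, 40.1 and 33.9 FPKM, with Lum listed at 0. Of 20 mesoderm and endoderm markers 4 passed, and all 20 summed to 14.5, 13.1 and 13.2 FPKM, with Ttr listed at 0. Neither sum was higher in shFox2-1 than in both controls.

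Across all genes, 692 lay above both control intervals in shFox2-1 (5.46%) and 268 below both (2.12%). On the scale of FPKM + 1, the median higher gene was at 1.37 times the nearer control and the median lower gene at 66.6% of it. Changes of at least 2-fold against the nearer control were found for 32 higher and 17 lower genes. The columns differed in overall level, with median values of 7.59 FPKM in shLuc, 8.03 in shGFP and 8.32 in shFox2-1. The log2 ratio of FPKM + 1 in shFox2-1, taken gene by gene, had a median of 0.11 against shLuc and 0.03 against shGFP. After each column had been scaled to the same median gene, here called centring, 383 genes were higher (3.02%) and 433 lower (3.42%). The share of calls that were higher was therefore 72.1% as deposited and 46.9% after centring. All 268 lower genes and 383 of the 692 higher ones were called in both scalings, and 0 changed direction. Centring lowered shFox2-1 relative to both controls, so it could only remove higher calls and add lower ones. That every lower call was kept is therefore no sign of stability.

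The controls differed less from each other. As deposited, in shGFP 126 genes lay above the shLuc interval (0.995%) and 24 below it (0.189%), whereas in shFox2-1 1350 lay above it (10.7%) and 378 below it (2.98%). After centring, 22 genes in shGFP lay above the shLuc interval (0.174%) and 68 below it (0.537%). The knockdown hairpin shFox2-1 was set against a single control only as deposited. Against shGFP alone, shFox2-1 was higher for 853 genes (6.73%) and lower for 453 (3.58%). By limma 839 genes were higher (6.62%) and 548 lower (4.33%) at an adjusted p under 0.05, and 720 of the 960 genes called by intervals were among them. The limma spread comes from the 2 controls alone, was almost the same for every gene (standard errors of 0.137 to 0.186), and the lone shFox2-1 value is assumed to vary as they do. With no FPKM minimum, limma called 0 of 20026 genes, with 2874 at an unadjusted p under 0.05, so its p-values depend on the minimum and the intervals lead here.

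At the edge of the rule, Smndc1, a survival motor neuron domain protein of the spliceosome, was just inside, with 16.8 and 18.5 FPKM in shLuc and shGFP and 24.6 in shFox2-1. Plpbp, a pyridoxal phosphate-binding protein, was just outside, at 16.4 and 15.9 FPKM in the controls and 21.2 in shFox2-1. Genes on either side of the line thus differed little.

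**Figure D1:**
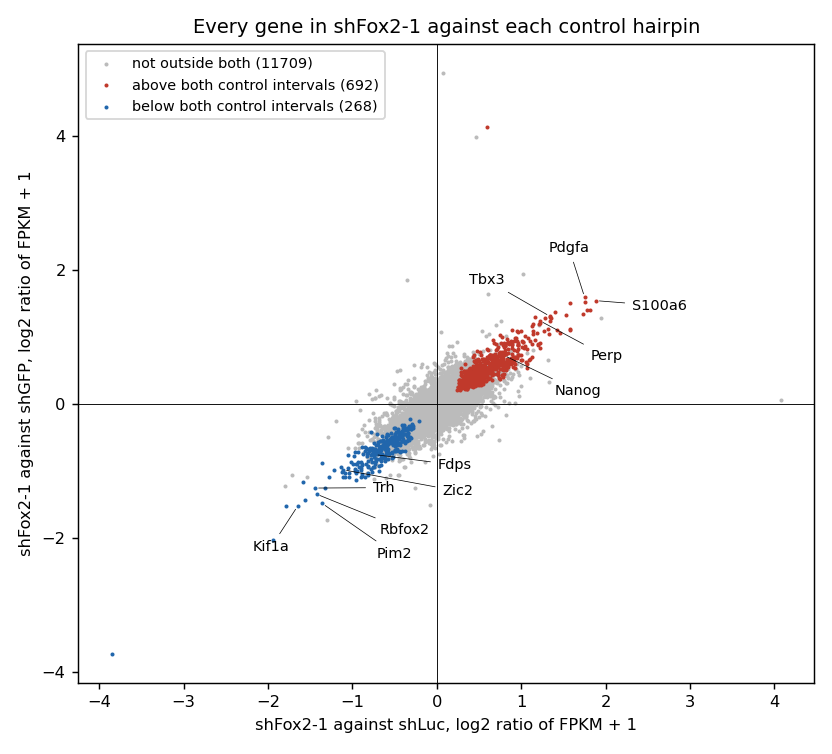
Log2 ratio of FPKM + 1 in shFox2-1 to shLuc (horizontal axis) and to shGFP (vertical axis), 1 point for each of the 12669 genes. The 692 genes above both control intervals lie at the upper right and the 268 below both at the lower left, with Rbfox2 among the latter.

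The 12 highest genes, ranked by the ratio to the nearer control, include a growth factor, a calcium-binding protein and an autophagy receptor. Pdgfa, a growth factor ligand at mm9 chromosome 5 from 139451964 to 139470907, stood at 6.33 FPKM in shLuc, 7.17 in shGFP and 23.7 in shFox2-1, a rise of 3.74-fold and 3.31-fold. S100a6, a calcium-binding protein, rose from 17.9 and 22.9 to 68.7 FPKM. In both genes the shFox2-1 value was far above the other 3 hairpins, since shFox2-2 stood at 8.14 FPKM for Pdgfa and 20.2 for S100a6. Calcoco2, a receptor for selective autophagy, rose from 5.66 and 7.68 FPKM to 21.9. Laptm5, a lysosomal membrane protein, rose from 4.84 and 5.15 to 13.998 FPKM. The 12 highest genes also include Tbx3, Perp and H19, described with their groups below, and Fam25c, which rose from 4.21 and 4.56 to 12.2 FPKM. The remaining 4 of the 12 are predicted or uncharacterised genes: Gm11701, 2210409E12Rik, Gm9697 and AU015836. The last of these went from 10.9 and 11.1 to 30.4 FPKM.

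The 12 lowest genes include, beside Rbfox2, a secreted enzyme, a motor protein and a protein kinase. Enpp2, the secreted enzyme autotaxin that makes lysophosphatidic acid, stood at 17.1 FPKM in shLuc, 14.1 in shGFP and 4.23 in shFox2-1. Kif1a, a kinesin motor, fell from 17.5 and 16.0 to 4.90 FPKM. Pim2, a serine/threonine kinase of survival signalling, fell from 41.2 and 45.2 to 15.5 FPKM. In shFox2-2 these genes stood at 12.5, 19.5 and 40.7 FPKM, above both controls for Kif1a and a little under both for Enpp2 and Pim2. Prom1, the membrane glycoprotein CD133, fell from 7.47 and 6.42 to 2.49 FPKM, and Card19, a caspase recruitment domain protein, from 10.3 and 9.67 to 3.48. Mapk12, a p38 kinase, fell from 9.91 and 10.3 to 4.32 FPKM, and Mef2b, a MADS-box transcription factor, from 10.6 and 9.77 to 4.31. H2-K1, a class I major histocompatibility antigen, fell from 20.0 and 17.0 to 8.05 FPKM. H2-K1 belongs to a family of near-identical genes that can share reads, so its value is uncertain. The predicted gene Gm9308 was listed at 0 in shFox2-1 and at 13.4 and 12.3 FPKM in the controls, and it is given without a fold.

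Factors of the naive pluripotent state were higher in shFox2-1. Of 31 naive and core pluripotency genes, all analysed, 11 rose and 0 fell, against 5.46% and 2.12% of all genes, and 9 rose after centring. The list counts below are likewise to be read beside these shares. All lists were chosen with earlier results of these data known, so an excess over these shares is a description. After centring the shares of all genes were 3.02% higher and 3.42% lower. The list's median log2 ratio to the control mean was 0.35, beside 0.07 for all genes, and 28 of the 31 lay above both controls, as 50.3% of all genes did. In these bulk cultures more cells of a state and more RNA per cell cannot be told apart.

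Tbx3, a T-box factor that sustains self-renewal, showed the largest rise of the list. It stood at 5.10 and 5.24 FPKM in shLuc and shGFP and 14.5 in shFox2-1, with shFox2-2 at 5.51. Tfcp2l1, a factor of the naive network, rose from 12.8 and 12.6 to 25.2 FPKM. Klf4 rose from 15.0 in each control to 27.0 FPKM, and its interval was far from theirs. Nanog, a homeodomain factor on a row that joins it with a predicted gene, rose from 77.9 and 81.5 to 136 FPKM. Zfp42, the zinc-finger marker Rex1, rose from 109.6 and 116 to 189 FPKM. The last 3 genes stood at 13.3, 76.0 and 114 FPKM in shFox2-2, near their control levels.

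Esrrb, an orphan nuclear receptor of the same network, rose from 30.8 and 34.2 to 43.4 FPKM, and Nr5a2, another nuclear receptor, from 5.51 and 5.70 to 9.05. Fbxo15, an F-box protein used as an ES cell reporter, rose from 26.2 and 30.2 to 45.6 FPKM, and the factor Sall4 from 71.0 and 72.3 to 91.4. Lifr, the receptor subunit for leukaemia inhibitory factor, went from 3.82 and 4.20 to 6.21 FPKM, and the AKT coactivator gene Tcl1 from 17.4 and 18.2 to 26.5. Lifr and Tcl1 were called as deposited and not after centring. The core factor Sox2 was not called, at 89.8, 94.2 and 104 FPKM, nor was Pou5f1, whose shFox2-1 value lay between the controls. By limma 11 of the 31 were higher at an adjusted p under 0.05, from 3.28e-16 for Tbx3, while Esrrb (adjusted p = 0.0507) and Sall4 (adjusted p = 0.11) did not pass.

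Genes of the primed state moved mostly the other way. Of 25 genes of the primed state and the NODAL pathway, 10 fell and 3 rose, and 11 fell and 2 rose after centring, with a median log2 ratio of -0.32. By limma 11 were lower and 4 higher at an adjusted p under 0.05. Dnmt3b, a de novo DNA methyltransferase, stood at 96.8 FPKM in shLuc, 107 in shGFP and 59.7 in shFox2-1, and its partner Dnmt3a at 28.4, 32.9 and 22.8. Pou3f1, the POU factor Oct6, fell from 10.8 and 13.0 to 5.70 FPKM. Both Dnmt3 genes and Pou3f1 lay under both control intervals, and in shFox2-2 they stood at 84.3 (Dnmt3b), 33.4 (Dnmt3a) and 9.58 FPKM (Pou3f1).

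Zic2 and Zic5 are neighbouring zinc-finger genes on chromosome 14. Zic2 fell from 14.9 and 13.5 to 6.35 FPKM and Zic5 from 5.40 and 5.47 to 2.47. Fgf5, the ligand most used to mark the primed epiblast, fell from 2.60 and 2.25 to 0.777 FPKM. Trh, a neuropeptide precursor gene, had the largest fall of the list on the log2(FPKM + 1) scale (-1.35), at 83.4, 73.2 and 30.1 FPKM. The SOX factors Sox4 and Sox11 also fell, from 10.3 and 10.1 to 5.89 FPKM and from 7.50 and 6.79 to 4.25. Nodal itself, at 9.36 and 10.8 in the controls and 14.1 in shFox2-1, was not called, and neither were its inhibitors Lefty1 and Lefty2. Rises were found in Etv4, an ETS factor downstream of FGF, from 12.1 and 14.4 to 24.7 FPKM, and Spry4, an FGF-induced inhibitor, from 12.2 and 13.1 to 17.5.

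**Figure D2:**
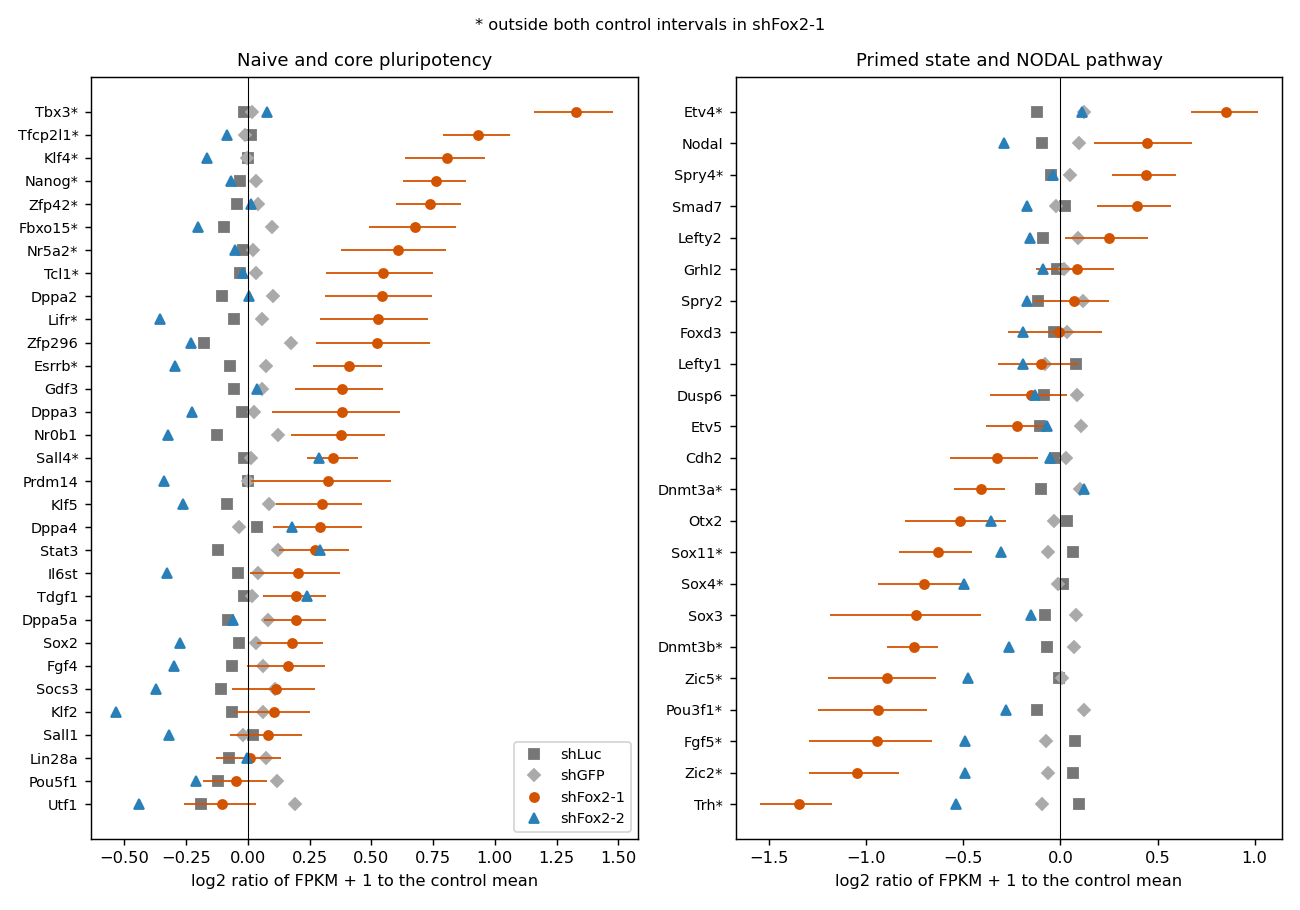
Log2 ratio of FPKM + 1 to the control mean (horizontal axis) for the 31 naive and core pluripotency genes and 23 of the 25 genes of the primed state and the NODAL pathway, with squares for shLuc, diamonds for shGFP, circles for shFox2-1 with the deposited interval as a bar, and triangles for shFox2-2. Most circles lie to the right of the controls in the first list, where 11 genes were called higher, and to the left in the second.

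Keratins and other genes of simple epithelium and trophoblast were also higher. Of 25 listed genes 16 were analysed, of which 6 rose and 1 fell, and 5 rose and 1 fell after centring. The keratin gene Krt8 stood at 19.5 and 20.8 FPKM in shLuc and shGFP and 39.0 in shFox2-1, its partner Krt18 at 13.4, 15.1 and 23.1, and Krt7 at 1.59, 1.73 and 4.04. All 3 keratins were nearer to the controls in shFox2-2, at 23.1, 13.5 and 1.22 FPKM. Bmp4, a ligand of the BMP pathway, rose from 3.39 and 4.79 to 11.1 FPKM, and Tfap2c, an AP-2 factor shared by trophoblast and germ cells, from 8.61 and 9.69 to 15.1. The claudin gene Cldn6, a tight-junction component, fell from 75.4 and 76.0 to 47.6 FPKM. The list was selected with these data known, and whether a change in the mix of cells contributed was not tested.

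Part of the targets of p53, the tumour suppressor that responds to DNA damage, rose in shFox2-1. Of 28 members analysed, 11 rose and 0 fell, and 10 rose after centring, with a median log2 ratio of 0.33, and limma called 10 higher at an adjusted p under 0.05. Perp, a tetraspan membrane protein, rose from 10.8 and 10.6 to 26.4 FPKM, and its shFox2-2 value was 13.5. Ccng1, which encodes cyclin G1, rose from 33.7 and 34.0 to 54.1 FPKM. Ei24, an endoplasmic reticulum protein induced by p53, rose from 18.1 and 20.0 to 31.7 FPKM. In Ccng1 and Ei24 the value of shFox2-2 (32.8 and 17.3 FPKM) was below both controls.

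Plk2, a polo-like kinase, rose from 5.22 and 6.19 to 10.1 FPKM, and Polk, a translesion DNA polymerase, from 4.17 and 3.82 to 7.02. Mdm2, the ubiquitin ligase that limits p53, rose from 36.1 and 38.1 to 55.6 FPKM, and Sfn, which encodes 14-3-3 sigma, from 28.8 and 34.7 to 51.7. Trp53 itself stood at 94.2, 106 and 128 FPKM and was called as deposited and not after centring. Several of the best-known targets were not called. Cdkn1a, the cell cycle inhibitor p21 on a joined row, went from 7.20 and 9.87 to 10.7 FPKM. The apoptosis genes Bax (70.3, 83.3 and 77.8 FPKM) and Bbc3 (9.41, 11.4 and 9.10 FPKM) lay between the controls or under them.

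Genes of sterol synthesis were lower in shFox2-1. Of 28 members analysed, 0 rose and 11 fell, and 14 fell after centring, with a median log2 ratio of -0.35 and 22 members below both controls, as 28.01% of all genes were. Mvk and Mvd of the mevalonate pathway were called after centring only. Fdps, which makes farnesyl diphosphate, stood at 23.0 FPKM in shLuc, 23.3 in shGFP and 13.4 in shFox2-1. Idi1, the isopentenyl diphosphate isomerase on a row joined with a predicted gene, stood at 66.9, 67.6 and 42.4 FPKM. Cyp51, the lanosterol demethylase, stood at 9.76, 9.93 and 6.13 FPKM. The controls lay close together in each of the 3 genes and shFox2-1 well under them, while shFox2-2 stood at 24.97 (Fdps), 65.5 (Idi1) and 9.10 FPKM (Cyp51).

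Other steps fell too. Msmo1, a sterol C4-methyl oxidase, fell from 28.01 and 28.9 to 19.003 FPKM, and Dhcr7, the enzyme of the last step to cholesterol, from 26.5 and 27.2 to 19.1. Sqle, the squalene epoxidase, fell from 48.9 and 53.8 to 34.3 FPKM, and Fdft1, the squalene synthase, from 26.7 and 27.3 to 20.7. Among regulators, Srebf2, the transcription factor that drives the pathway, fell from 27.9 and 30.7 to 21.6 FPKM, and Insig1, which retains its escort protein in the endoplasmic reticulum, from 19.7 and 20.1 to 11.9. Scap, that escort protein, was not called, at 5.51 and 5.73 FPKM in the controls and 7.34 in shFox2-1. For Fdft1, Dhcr7 and Acat2, shFox2-2 stood above both controls, at 34.3, 33.0 and 44.4 FPKM. By limma 10 of the 28 were lower at an adjusted p under 0.05.

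The promoters of this group were examined after the genes had been seen to move together. SREBP factors act on sterol promoters with NF-Y, which binds CCAAT boxes. CCAAT, searched on both strands, was found in the 250 bases before the start of 17 of the 20 sterol genes that matched the RefSeq promoter table (85%). It was found in 41.5% of 8397 matched genes among those analysed and in 37.5% of all 27025 genes in the table. Of the 11 genes that fell, 7 matched the table and 6 of them held it. The whole list held it about as often (17 of 20), so the box did not set apart the genes that fell. TCACNCCAC, a sterol element searched the same way, was found in 0 of the 20 and in 1.33% of the analysed genes. A match of letters is a description and was not tested as a binding site. The last 120 bases before the start are shown for the 4 called genes that hold a box there, on build GRCm38.p6, which differs from the mm9 build of the expression table. They lie at chr13:8885486-8885605 (Idi1, plus strand), chr5:4104698-4104817 (Cyp51, minus), chr8:64733579-64733698 (Msmo1, minus) and chr7:143830094-143830213 (Dhcr7, plus). Sequences run 5′ to 3′ on the gene's strand, and capitals mark CCAAT or its reverse complement ATTGG.
Idi1: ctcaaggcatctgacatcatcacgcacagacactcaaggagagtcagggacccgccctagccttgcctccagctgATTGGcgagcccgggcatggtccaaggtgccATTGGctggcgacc
Cyp51: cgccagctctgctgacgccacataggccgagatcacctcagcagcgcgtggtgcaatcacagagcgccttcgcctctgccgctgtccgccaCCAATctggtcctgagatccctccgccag
Msmo1: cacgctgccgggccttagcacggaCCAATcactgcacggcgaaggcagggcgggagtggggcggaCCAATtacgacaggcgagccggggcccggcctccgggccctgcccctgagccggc
Dhcr7: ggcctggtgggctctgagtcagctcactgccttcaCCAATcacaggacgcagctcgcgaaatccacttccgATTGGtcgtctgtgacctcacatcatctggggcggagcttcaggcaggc
Idi1, Msmo1 and Dhcr7 each held 2 boxes in this stretch and Cyp51 held 1. The box nearest the start began 14 bases before it in Idi1 and 55 bases before it in Msmo1.

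**Figure D3:**
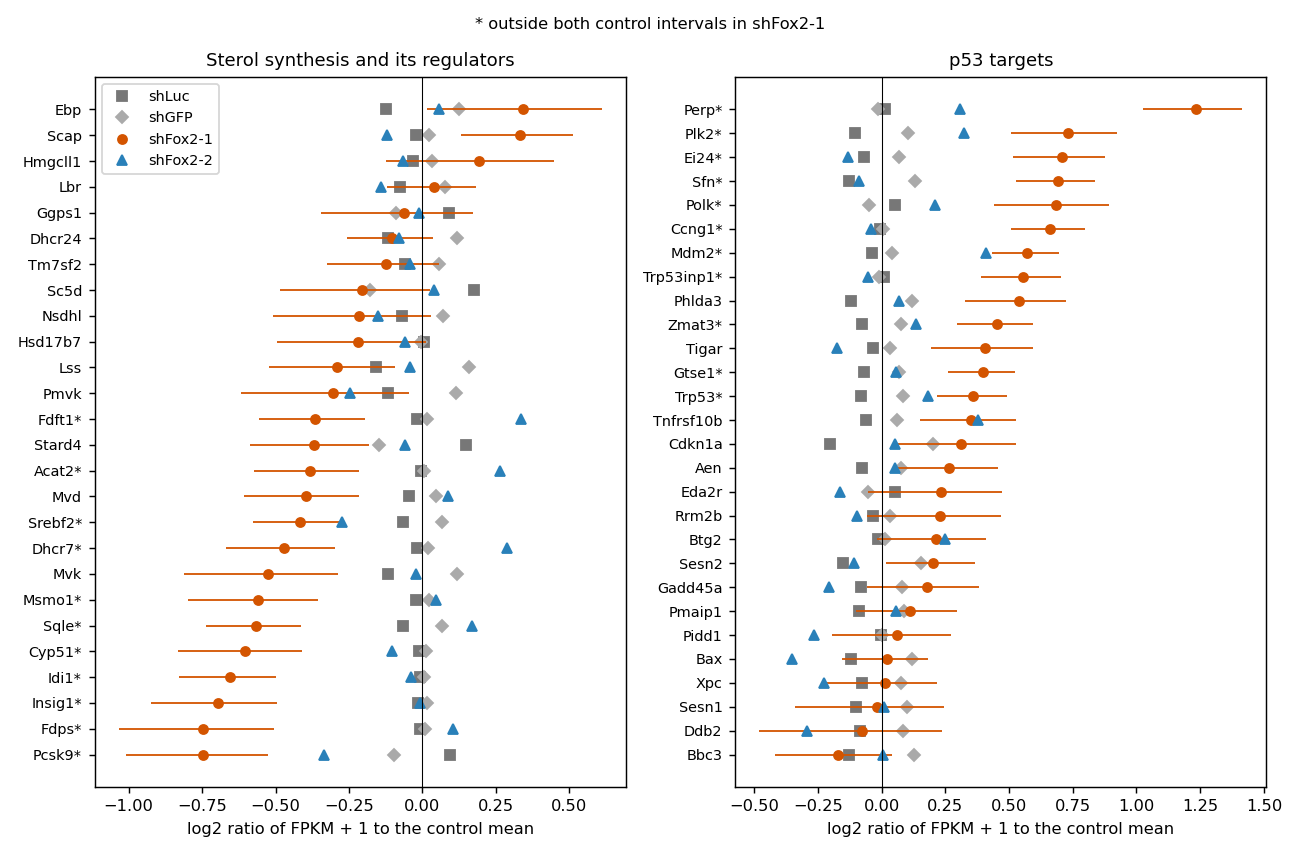
Log2 ratio of FPKM + 1 to the control mean (horizontal axis) for 26 of the 28 sterol synthesis genes and the 28 p53 targets analysed, with symbols for the 4 hairpins and the deposited interval of shFox2-1 as a bar. Asterisks mark the 11 sterol genes below both control intervals and the 11 p53 targets above both.

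Other metabolic genes fell with the sterol group. Of 15 fatty acid synthesis genes 4 fell and 1 rose. Fads2 and Fads1, neighbouring desaturases on chromosome 19, fell from 17.5 and 18.04 to 10.6 FPKM and from 24.6 and 22.6 to 16.6, and Mid1ip1, an activator of acetyl-CoA carboxylase, from 17.4 and 19.7 to 10.1. Of 30 genes of glycolysis and hypoxia 6 fell and 1 rose, and 11 fell and 1 rose after centring. The glycolytic enzyme genes Pgk1 (51.9, 50.2 and 34.1 FPKM in shLuc, shGFP and shFox2-1) and Tpi1 (79.4, 91.6 and 54.9 FPKM) were in that group. Bnip3, a hypoxia-induced mitophagy receptor, fell from 11.8 and 13.0 to 6.78 FPKM. The histone demethylase gene Kdm3a, also induced by hypoxia, rose from 25.6 and 26.9 to 39.2 FPKM.

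Of 25 genes of amino acid supply and the factor ATF4, 4 fell and 0 rose as deposited, and 11 fell after centring, so this count depends on the scaling. Phgdh, the first enzyme of serine synthesis, fell from 12.1 and 13.4 to 7.73 FPKM. Slc7a3, a cationic amino acid transporter, fell from 93.7 and 89.4 to 71.7 FPKM. Cytosolic ribosomal protein genes behaved alike in this respect, with 1 of 77 lower as deposited (Rps19, at 124, 125 and 98.6 FPKM) and 8 after centring. Their median log2 ratio was -0.11, and 48 of the 77 lay below both controls. Many ribosomal protein genes have processed copies that can share reads.

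Among splicing regulators, the class of gene the series was built around, SR and hnRNP proteins held more higher calls as deposited than the 5.46% of all genes, and the other splicing regulators and the spliceosome core were near that share. Of 11 SR proteins analysed, which bind exonic enhancers, 5 rose and 0 fell, and 3 rose after centring. Srsf7 stood at 100.2 FPKM in shLuc, 97.9 in shGFP and 136 in shFox2-1. Srsf1 stood at 137, 135 and 180.2 FPKM, and Srsf6 at 48.4, 51.0 and 65.6. Each of the 3 lay above both control intervals, by 1.29-fold to 1.39-fold, and stayed called after centring, while Srsf3 and Srsf10 did not. By limma Srsf7 (adjusted p = 0.0239) and Srsf1 (adjusted p = 0.0469) passed and Srsf6 (adjusted p = 0.05995) did not. In shFox2-2 Srsf7 and Srsf1 stood at 122 and 159 FPKM and Srsf6 at 45.9.

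Of 26 hnRNP proteins, which bind pre-mRNA and often oppose SR proteins, 6 rose as deposited and 1 rose and 1 fell after centring. The list's median of 0.08 became -0.01 on centring. Hnrnph1 kept its call, at 176 and 179 FPKM in the controls and 239 in shFox2-1, with shFox2-2 at 163. Hnrnpa2b1 (333, 329 and 409.8 FPKM), Hnrnpr, Syncrip, Hnrnpab and Pcbp2 did not keep it. Of 38 other splicing regulators 2 rose, which is 5.26% beside 5.46% of all genes. They were Tardbp, the RNA-binding protein TDP-43, at 59.9, 57.8 and 80.7 FPKM, and Mbnl3, a muscleblind protein, at 1.49, 1.25 and 2.59.

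In the spliceosome core 3 of 44 rose (6.82%) and 0 fell as deposited, and 2 were higher and 1 lower after centring. Sf3b1, a branch-site component of the U2 particle, rose from 37.3 and 41.6 to 57.9 FPKM, and Prpf8, the scaffold of the catalytic centre, from 60.8 and 71.3 to 90.9. Cdc5l was the remaining member and lost its call on centring. Among kinases of SR proteins, Clk3 fell from 16.3 and 16.1 to 11.8 FPKM, and the other 7 analysed were not called. All values are per gene, so isoforms, including those removed by decay, were not measured.

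The microRNA pathway had 4 of 13 genes higher as deposited and 1 after centring. Dgcr8, the partner of Drosha in cutting primary microRNAs, kept its call. It rose from 21.3 and 21.7 to 29.7 FPKM, with 24.5 in shFox2-2. Drosha (55.2, 58.0 and 71.3 FPKM), Dicer1 and Ddx5 were called only as deposited. In the Notch pathway 2 of 25 rose as deposited (8%, beside 5.46% of all genes), and 1 was higher and 1 lower after centring. The list's median log2 ratio was -0.09, and 13 of the 25 lay below both controls. Rbpj, its DNA-binding effector, rose from 33.6 and 33.5 to 58.4 FPKM and Spen, a corepressor, from 5.81 and 5.89 to 7.65, the latter not after centring.

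**Figure D4:**
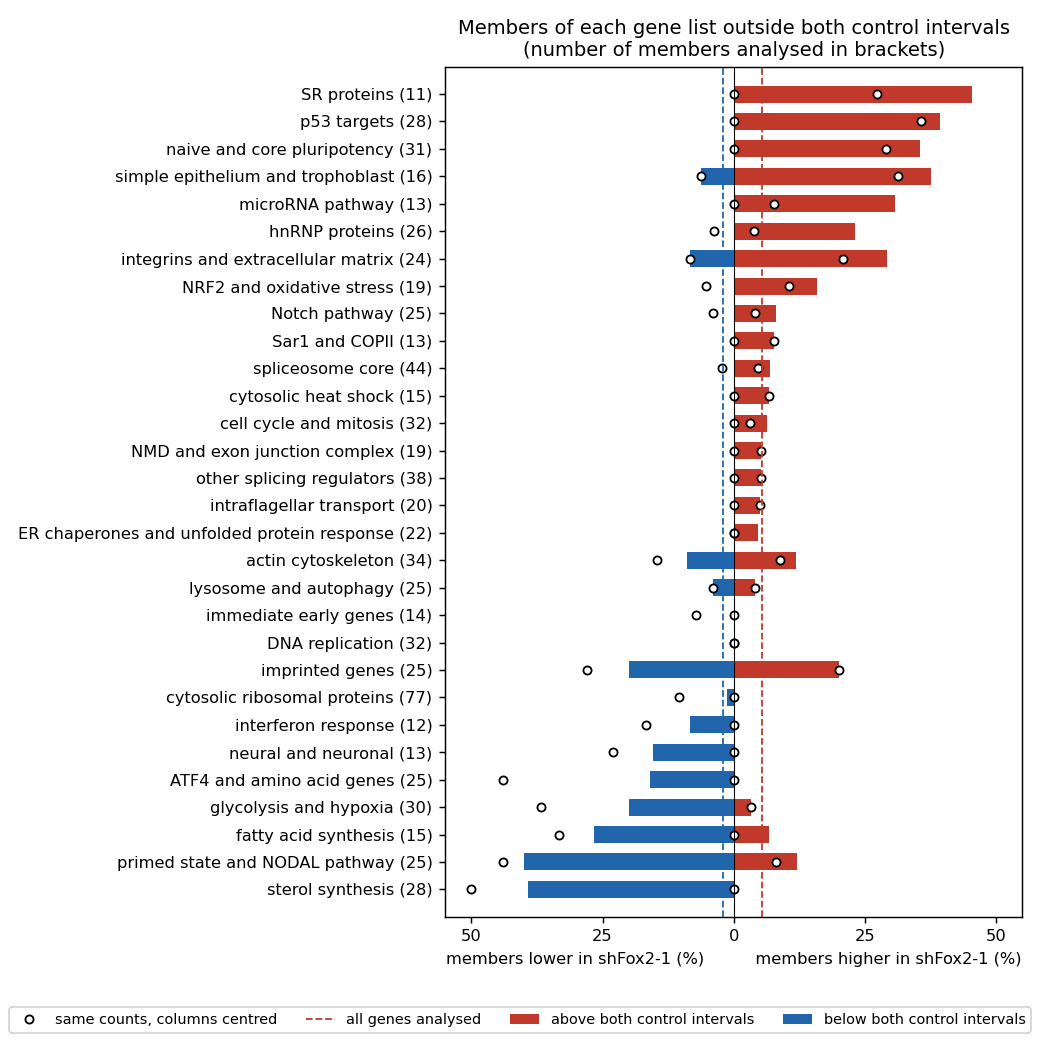
Percent of the analysed members of each gene list with at least 10 such members that lay above (right) or below (left) both control intervals in shFox2-1, with the number of members in brackets. Circles give the same after centring and dashed lines the share of all genes, 5.46% higher and 2.12% lower. Sterol synthesis and the primed state extend furthest to the left as deposited, and SR proteins, p53 targets, genes of simple epithelium and trophoblast and pluripotency genes furthest to the right.

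Imprinted genes, which are expressed from 1 parental copy, changed in both directions. Of 25 analysed 5 rose and 5 fell, and 5 rose and 7 fell after centring. H19, a maternally expressed noncoding RNA, stood at 10.8 FPKM in shLuc, 14.3 in shGFP and 38.1 in shFox2-1. Its paternally expressed neighbour on chromosome 7, the growth factor gene Igf2, stood at 5.91, 6.90 and 16.2 FPKM. Both genes of this locus were thus higher, and shFox2-2 stood at 11.2 and 6.51 FPKM. Peg10, a retrotransposon-derived gene of the placenta, rose from 32.4 and 37.5 to 73.6 FPKM. Cdkn1c, the cell cycle inhibitor p57, fell from 13.5 and 16.2 to 8.06 FPKM, and Nnat, a proteolipid of the endoplasmic reticulum, from 14.4 and 14.9 to 7.996.

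Of 24 integrin and extracellular matrix genes 7 rose and 2 fell, and 5 rose and 2 fell after centring. The basement membrane genes Nid1 (5.40, 5.30 and 9.67 FPKM in shLuc, shGFP and shFox2-1), Col4a2 (4.74, 4.91 and 7.36 FPKM) and Lama1 (5.46, 5.30 and 7.72 FPKM) were higher. Vcan, a large proteoglycan, rose from 6.21 and 4.80 to 9.06 FPKM. Itga3, the alpha-3 integrin, fell from 24.4 and 26.2 to 15.0 FPKM and stood at 11.9 in shFox2-2. Of 34 actin cytoskeleton genes 4 rose and 3 fell as deposited, and 3 were higher and 5 lower after centring. Limk2, a kinase of cofilin, rose from 21.7 and 20.1 to 31.3 FPKM, and Acta2, the smooth muscle actin, from 1.97 and 1.71 to 4.31. Pls3, an actin-bundling plastin, fell from 15.3 and 15.2 to 10.4 FPKM, and Cnn1, a calponin, from 3.19 and 3.17 to 1.65.

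Several lists held few or no calls in number, to be read beside 5.46% of all genes called higher and 2.12% called lower. Of 32 DNA replication genes 0 were called in either direction and in either scaling. Mcm2, a helicase subunit, stood at 132, 144 and 142 FPKM. Of 32 cell cycle genes 2 rose as deposited, which is 6.25% and near the share of all genes, and 1 after centring. They were the checkpoint gene Mad2l1 (17.7, 17.0 and 26.1 FPKM) and the kinetochore gene Cenpf, which lost its call on centring. Of 14 immediate early genes 0 were called as deposited and 1 was lower after centring. Of 12 interferon response genes 1 fell (8.33%), Bst2, the antiviral membrane protein tetherin, from 30.4 and 34.2 to 16.0 FPKM. After centring 2 were lower (16.7%). Of 13 neural genes 2 fell as deposited (15.4%) and 3 were lower after centring (23.1%). Nes, the intermediate filament nestin, fell from 8.49 and 9.69 to 3.87 FPKM, and Ank2, an ankyrin, from 7.37 and 5.97 to 4.11. In these 2 small lists the lower shares were above those of all genes, 2.12% as deposited and 3.42% after centring.

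Of 19 genes of the NRF2 oxidative stress response 3 rose as deposited, and 2 were higher and 1 lower after centring. Nqo1, a quinone reductase, stood at 5.44, 7.98 and 12.5 FPKM, with shGFP well above shLuc. Cryab, a small heat shock protein, rose from 1.28 and 1.78 to 4.75 FPKM, the only call among 15 cytosolic heat shock genes. Ulk1, the kinase that starts autophagy, rose from 25.4 and 26.2 to 47.8 FPKM. Wdr35, of intraflagellar transport, rose from 16.6 and 17.96 to 27.6 FPKM, and Sar1a, a GTPase of COPII vesicles, from 36.8 and 33.5 to 50.1. In the last pair shFox2-2 was also above both controls, at 24.0 and 47.6 FPKM. Canx, the chaperone calnexin, rose from 72.7 and 75.0 to 91.9 FPKM as deposited and not after centring, the only call among 22 genes of the unfolded protein response. Eif1a, an initiation factor gene, rose from 36.5 and 39.4 to 56.3 FPKM. It was the only analysed member of a list of 17 genes of the 2-cell-like state, so its rise gives no reading of that state. Mmp2, a matrix metalloproteinase on the fibroblast list, fell from 5.30 and 5.62 to 3.19 FPKM.

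The values of shFox2-2 were set beside those of shFox2-1. Against the same controls, 44 genes lay above both intervals in shFox2-2 (0.347%) and 251 below both (1.98%). After centring these were 279 (2.2%) and 96 (0.758%). Since both comparisons use the same controls, the knockdown hairpins were also compared directly. For 655 of the 960 genes called in shFox2-1 (68.2%), the intervals of the 2 knockdown hairpins did not overlap and differed in the direction of the call. Only the columns as deposited were used, with median values of 8.32 FPKM in shFox2-1 and 7.15 in shFox2-2. The part of this difference in level in the 68.2% was not tested. The 960 genes were chosen by their shFox2-1 values, and no share over all genes is given beside them, so the 68.2% is a description. The same count was 10 of 11 called genes in the naive and core pluripotency list and 9 of 11 in sterol synthesis. It was 6 of 11 in p53 targets and 2 of 5 among SR proteins. These list counts have the same limits and do not rank the lists. The median log2 ratio to the controls in shFox2-2 was -0.20 for pluripotency, -0.04 for sterol synthesis and 0.01 for p53 targets, beside -0.10 for all genes.

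Binding by RBFOX2 was set beside these calls. The authors' list held 35639 clusters of the tagged library, and 6525 of the 12669 genes had at least 1. A cluster was present in 527 of the 692 higher genes (76.2%, 95% Wilson interval 72.8 to 79.2), in 141 of the 268 lower genes (52.6%, 46.6 to 58.5) and in 5857 of the 11709 genes not called (50.02%, 49.1 to 50.9). Intervals cover counting error only. The higher genes were also longer and more abundant, with a median locus of 33190 bases and a median of 17.1 FPKM, against 18960 bases and 7.58 FPKM in genes not called.

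Genes were therefore divided by locus length into 5 groups of equal size. The share called higher was 1.66% in the shortest group and 8.09% in the longest, and 1.07% and 4.54% after centring. The share called lower was 1.78% and 2.88%. A cluster was present in 23.8% of the higher genes of the shortest group and 10.8% of those not called, and in 90.2% against 77.0% in the longest. In each of the 5 length groups the share was larger among higher genes than among genes not called. Among lower genes it was 28.9% in the shortest group, above the higher genes, and under that of genes not called in the other groups. Divided by level instead, it was 27.8% among higher genes against 30.8% among genes not called in the group of lowest FPKM, and 88.0% against 56.0% in the group of highest. The share moved with level as well as with length, and the part of either in it was not tested.

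**Figure D5:**
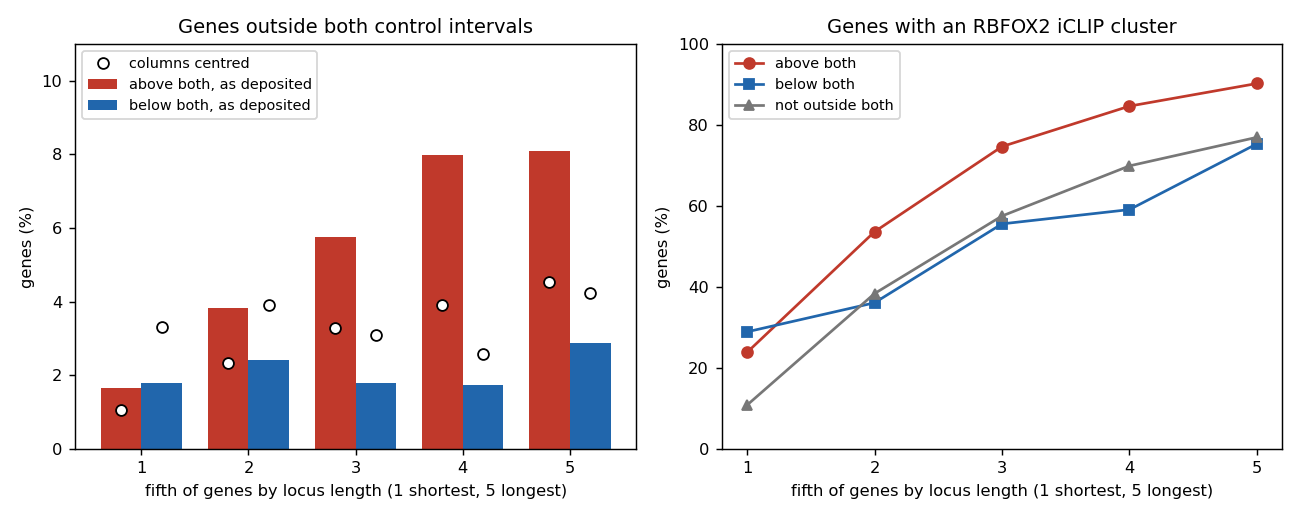
Left, percent of genes above or below both control intervals in shFox2-1 in 5 groups of genes by locus length, with circles for the values after centring. Right, percent of genes with an RBFOX2 iCLIP cluster in the same groups, for higher, lower and uncalled genes. Calls of higher genes go from 1.66% to 8.09% from the shortest to the longest group, and clusters are more frequent in longer genes of every kind.

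The called genes with the most clusters were Fgfr2, a fibroblast growth factor receptor, with 101, Dgcr8 with 85, Rbpj with 78, Ptpn14, a tyrosine phosphatase, with 61, and Ranbp17, a nuclear transport receptor, with 53. All of them rose, as did 72.1% of all called genes as deposited, and higher genes were also longer and more abundant. Rbfox2 itself, which fell, held 51 clusters. Fgfr2 stood at 4.94 FPKM in shLuc, 5.30 in shGFP and 7.67 in shFox2-1, and Ranbp17 at 16.2, 15.4 and 22.0. Ptpn14 stood at 13.3 FPKM in each control and 17.9 in shFox2-1, and 16.8 in shFox2-2. After centring Fgfr2 and Ranbp17 lost their calls, and Dgcr8, Rbpj and Ptpn14 kept theirs.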

How the data were processed

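RNA-seq of V6.5 mouse ES cells was deposited as 1 FPKM value per gene and hairpin, with a lower and an upper bound and a status, per the file headers. The authors pooled the 2 libraries of a hairpin in each value. TopHat2 2.0, Cufflinks 2.1.1 and build mm9 are credited to the submitters' processing notes. Neither the annotation, the scaling between hairpins, the level of the bounds nor the software behind the iCLIP clusters is given in the sources used here. Depth is unknown, since FPKM values come without counts. At 5 FPKM or more the median distance from value to bound was 13.8%, 15.4% and 14.9% of the value in shLuc, shGFP and shFox2-1. From the authors' iCLIP list only the position and gene of each cluster were used. The list had been deposited as enriched clusters of the tagged library.

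Rows with a FAIL status in the 3 columns (88) or a mean under 1 FPKM (14100) were left out, and 2076 rows with low-data status were kept. Rows that join several genes (228) and predicted genes were kept and are named as such. Fold changes and list medians are on the log2(FPKM + 1) scale, which understates changes of low genes, whereas folds and percentages of a level are ratios of FPKM. Limma 3.58.1 in R 4.3.3, with its variance trended on the mean, was fitted to all genes, 1 knockdown against 2 control values, with Benjamini-Hochberg adjustment. Its p-values measure the spread between control hairpins, not between cultures. The scripts were tested on simulated data.

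Of 901 genes in 35 lists, 887 were matched by current or older names and 772 analysed. Named genes are the 12 highest and 12 lowest called genes with a mean of at least 5 FPKM, ranked by the ratio to the nearer control, up to 5 called members of each list (or the 2 of highest FPKM where none was called), and the 5 called genes with the most clusters. Other list members are named to show which did or did not change, and were chosen after their values were seen. The comparison and the lists were chosen with earlier results of these data known. Alternatives were centring, other FPKM minimums, status OK only, each control alone, a fold of 1.5, intervals widened 1.5 times, a pseudocount of 0.1 and limma without the trend. A few members of the lists enter the counts and are not reported here by name or plotted.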

Additional observations from a re-analysis of the deposited data

Results flagged for a closer look

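A few named genes were outside both control intervals in opposite directions in the 2 knockdown hairpins. The difference between their effects was not tested by a model. Rock2, a kinase of actin contraction, stood at 7.64 and 7.47 FPKM in shLuc and shGFP, 10.3 in shFox2-1 and 5.09 in shFox2-2. Cenpf, a kinetochore protein, stood at 13.2, 13.1, 17.1 and 6.77 FPKM in the same order. Ctsl, a lysosomal protease, went the other way, at 92.1, 88.7, 70.1 and 121 FPKM. After centring only Ctsl was still called in opposite directions. Rock2 then lost its call in both knockdown hairpins and Cenpf its call in shFox2-1. Of all 12669 analysed genes, 59 were called in opposite directions as deposited and 23 after centring. As deposited, all of them but Ctsl were higher in shFox2-1 and lower in shFox2-2. The column medians differed the same way, at 8.32 FPKM in shFox2-1 and 7.15 in shFox2-2. The part of that difference in these calls was not tested.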

How the results depend on the processing

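No paired analysis was possible because each deposited column pools the 2 libraries of a hairpin. The counts depended on the settings. Genes above both control intervals numbered 692 as deposited, 383 after centring and 204 with intervals widened 1.5 times. A rule of at least 1.5-fold from each control in FPKM + 1, applied without the intervals, called 229 higher and 174 lower. Without shGFP 1350 were called. Of genes below both intervals there were 268 as deposited, 433 after centring, 171 at a mean of at least 5 FPKM, 80 with widened intervals and 453 without shLuc. Other settings gave 558 to 853 higher and 212 to 378 lower. The limma counts were 839 higher and 548 lower, 541 and 845 after centring, 542 and 257 at a mean of at least 5 FPKM, and 0 and 0 with no minimum, where the lowest adjusted p was 0.344. Without the mean-variance trend 510 were higher and 374 lower, with status OK only 622 and 427, and with a pseudocount of 0.1 816 and 561. Between the controls, 126 higher and 24 lower genes in shGFP became 22 and 68 after centring. The share of higher genes with a cluster was 76.2% as deposited and 70.2% after centring. That last setting, the placing of clusters by position (78.3%) and the removal of predicted genes, pseudogenes and joined rows (631 higher, 246 lower) were chosen after seeing the data. The cause of these shifts was not tested.

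Of those called, 0 reversed in the 4 settings run for single genes, but widening the intervals or leaving out a control cannot reverse a call. Of 122 named genes, 104 kept their side of the rule after centring and 66 with widened intervals. Genes not called, such as Mcm2, can turn sign. The genes that lost their call on centring were Srsf10, Srsf3, Hnrnpr, Hnrnpa2b1, Syncrip, Hnrnpab, Cdc5l, Elovl6, Canx, Rock2, Spen, Dicer1, Drosha, Ddx5, Cenpf, Prdx1, Fgfr2 and Ranbp17. Centring turned the sign of 5 of 33 list medians (hnRNP proteins, spliceosome core, endoplasmic reticulum chaperones, cell cycle, lysosome). With 1 value per hairpin, a change particular to shFox2-1 cells and an effect of losing Rbfox2 cannot be told apart.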
